A study of Mus musculus with 9 samples.

Results

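Expression at stage E15.5 (E for embryonic day) was set against the midpoint between E14.5 and E16.5 in mouse brown adipose tissue (BAT), for all 30915 genes of the deposited table of 30915. For each gene the mean of the 3 E15.5 arrays minus the average of the E14.5 mean and the E16.5 mean was taken, on the log2 scale. This difference is called the deviation. It is 0 for a gene that moves by the same log2 amount on both days. It is positive for a gene that rises mainly on the first day, falls mainly on the second day or peaks at E15.5, and negative for a gene that falls mainly on the first day, rises mainly on the second day or dips at E15.5.

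All embryos were untreated wild-type C57Bl6J mice. The ages were E14.5, E15.5 and E16.5, with 3 arrays each. Every array held RNA of its own pool, made of the BAT of 3 embryos, so 9 pools were measured and differences between single embryos were averaged out. The arrays were of the MoGene-2_0-st type, which reads transcripts with probes spread along each gene. The values were log2 expression values from the robust multi-array average method.

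Brown adipocytes arise from mesenchymal progenitors that share a lineage with skeletal muscle. They take on a general adipocyte programme of lipid droplets, lipases and adipokines, fill with mitochondria, and switch on Ucp1, the uncoupling protein of the inner mitochondrial membrane that turns the energy of fuel oxidation into heat. Late in gestation the depot stores lipid and glycogen ahead of birth, while its progenitors leave the cell cycle.

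The tissue label was set against marker genes. The brown fat regulators Ebf2 and Pparg averaged 11.1 and 11.0 at E14.5, 11.4 and 11.4 at E15.5, and 11.4 and 11.7 at E16.5. The lipid carrier Fabp4 averaged 11.1, 12.3 and 12.6 at the same stages. The other brown adipocyte markers were lower at E14.5. Ucp1 averaged 4.46 there, Cidea 5.33, Plin1 6.02, Adipoq 6.21, Ppargc1a 6.97 and Prdm16 7.84. The tissue also held skeletal muscle transcripts. The actin gene Acta1 averaged 12.2, 11.7 and 11.7. The epidermal keratin Krt14 averaged 4.20, 4.07 and 4.17 at the 3 stages and the liver gene Alb 3.57, 3.72 and 3.70, near the low end of a scale that ran from 2.34 to 13.1. In a bulk sample, fewer cells of a type and less RNA per cell cannot be told apart.

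One array stood apart. On E16.5 replicate 2 the median of all values was 5.05, against 4.79 to 4.85 on the other 8 arrays, and the median of 1469 odour and pheromone receptor genes was 3.66, against 3.16 to 3.29. Counts are therefore given with all 9 arrays and without it. Leaving out any 1 of the E15.5 arrays lowered the number of genes called, from 1610 with all arrays to between 606 and 721.

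With all 9 arrays, 1610 genes (5.21% of those tested) deviated from the midpoint at a limma adjusted p under 0.05, with the adjustment over all genes. These were 746 genes (2.41%) above it and 864 genes (2.79%) below it. The list counts given below are to be read against these shares. A deviation of at least 0.5 in log2 was seen in 310 genes (1%) above the midpoint and 382 (1.24%) below it, and one of at least 1 in 36 (0.116%) above and 28 (0.0906%) below. The 3 E15.5 values lay wholly outside the range of the 6 outer values in 1159 genes (3.75%), above it in 588 (1.9%) and below it in 571 (1.85%). The median deviation of all genes was -0.04. Without E16.5 replicate 2 the count was 3361, with 1813 above and 1548 below, and 1607 of the 1610 genes were among them. The share of calls above the midpoint was 46.3%, against 53.9% without that array, 55.5% after quantile normalization, 57.2% after centring each array on its median and 25.9% when the contrast was taken on the linear scale.

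The called genes were sorted into 6 shapes with the calls of each single day in the same fit. The first day is E15.5 minus E14.5 and the second day is E16.5 minus E15.5. Both share the E15.5 arrays, so their values are given side by side and not related to each other. The first day called 6275 genes (20.3%) and the second day 6076 genes (19.7%). Early rises, with a called rise on the first day and no called fall on the second, numbered 306 (0.99% of all genes). Early falls numbered 506 (1.64%), late rises 264 (0.854%) and late falls 267 (0.864%). Peaks, with a called rise and then a called fall, numbered 173 (0.56%), and troughs, with a called fall and then a called rise, 94 (0.304%). Of the 173 peak genes 105 were not called between E14.5 and E16.5, and of the 94 trough genes 57 were not. A comparison of the outer stages alone would not have listed them. In all 173 peaks and all 94 troughs the 3 E15.5 values lay outside the range of the 6 outer values. That separation therefore sets no named peak or trough apart. Without E16.5 replicate 2, 1457 of the 1610 genes stayed in the same shape.

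**Figure D1:**
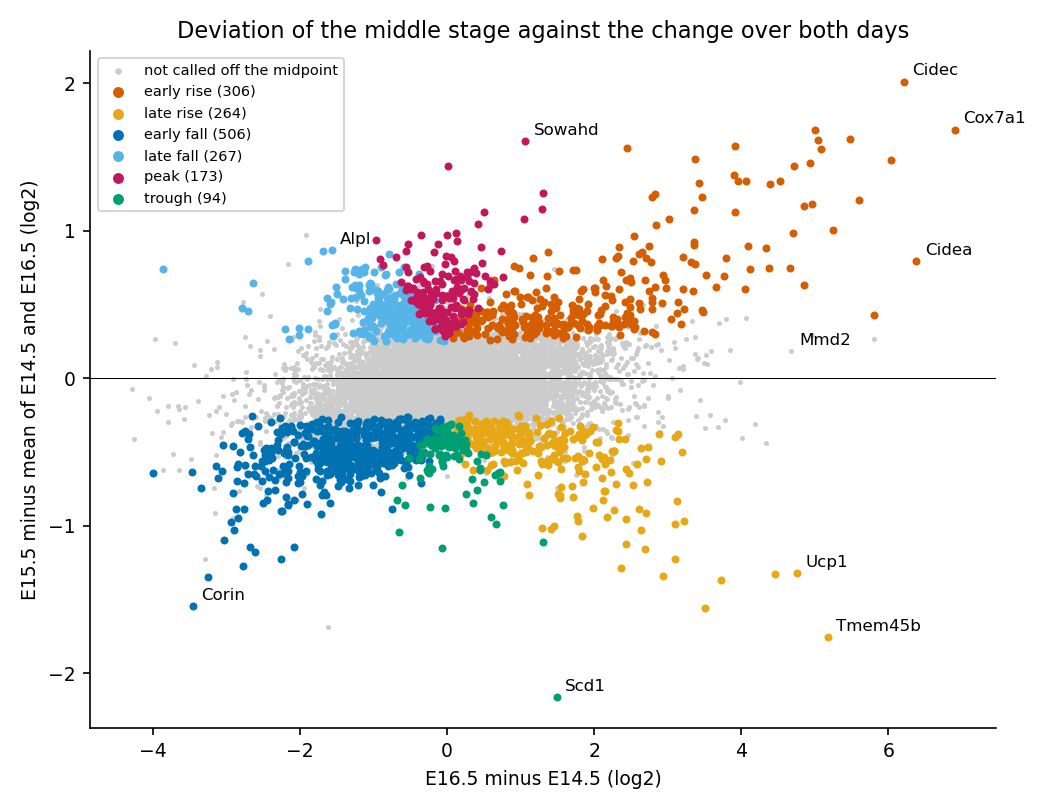
Each point is 1 of 30915 genes. The horizontal axis is the log2 change between E14.5 and E16.5 and the vertical axis is the log2 deviation of E15.5 from their midpoint, with the 6 shapes in colour and uncalled genes in grey. Cidec lies highest at 2.01 and Scd1 lowest at -2.16.

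Early rises were led by genes of the adipocyte and its lipid droplet. Cidec, which joins lipid droplets into larger ones, had the largest positive deviation of all genes. It measured 5.54, 5.44 and 5.61 on the E14.5 arrays, 10.59, 10.72 and 10.63 on the E15.5 arrays, and 11.68, 11.80 and 11.73 on the E16.5 arrays. The 3 stages did not overlap, and in log2 E15.5 lay much nearer to E16.5 than to E14.5. Its deviation was 2.01 ± 0.07 (SE, n = 3 arrays per stage; limma adjusted p = 8.24e-07), with 5.11 on the first day and 1.09 on the second.

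Plin1, the perilipin that coats and guards the droplet, measured 6.11, 5.84 and 6.10 at E14.5, 10.32, 10.41 and 10.40 at E15.5, and 11.46, 11.50 and 11.51 at E16.5. Its stages did not overlap either, and its deviation was 1.62 ± 0.08 (limma adjusted p = 5.13e-06). The hormone adiponectin, Adipoq, measured 6.31, 5.97 and 6.36 at E14.5, 8.63, 8.74 and 8.65 at E15.5, and 9.02, 9.19 and 8.96 at E16.5. Its deviation was 1.04 ± 0.10, with changes of 2.46 on the first day and 0.38 on the second. Of the whole 2-day change of Adipoq in log2, 86.6% fell on the first day, against 82.4% for Cidec and 79.7% for Plin1.

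Among lipid droplet genes, 12 of 28 measured lay above the midpoint and 3 below, and the list median was 0.18 against -0.04 for all genes. All 12 were early rises. Among them were the triglyceride lipase Pnpla2, with a first-day change of 3.51 and a second-day change of 0.88, and Cidea, with 3.98 and 2.40. The 3 below the midpoint were Pnpla3, Cideb and Fitm1, named after their values were seen. Leaving out E15.5 replicate 2 or 3 left 7 members above. On the linear scale, described further on, 2 members lay above and 6 below.

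In the adipocyte differentiation list, 14 of 30 lay above the midpoint and 1 below, with a median of 0.23. The 14 included the glycerol channel Aqp7 (deviation 1.33), the activin receptor Acvr1c (1.46), and the transcription factors Cebpb (0.90) and Cebpa (0.43). The 1 below was Klf9, named after its value was seen. Without E15.5 replicate 3 the number above was 9, and on the linear scale 5 lay above and 5 below. The call for Cebpa ended without E14.5 replicate 2 or 3 or without any 1 of the E15.5 arrays. Pparg, the master regulator of fat cell formation, was not called. It averaged 11.4 at E15.5, and its deviation of 0.04 had a 95% interval of -0.13 to 0.20.

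Other early rises at the top of the shape carried different roles. The complement component C3 measured 7.49, 7.40 and 7.68 at E14.5, 11.02, 11.14 and 11.03 at E15.5, and 11.49, 11.35 and 11.49 at E16.5 (deviation 1.58 ± 0.08, limma adjusted p = 5.52e-06). Mrap, the accessory protein that carries the ACTH receptor to the cell surface, deviated by 1.61 ± 0.10, and Klb, the co-receptor for FGF21, by 1.55 ± 0.08. Itih4, whose product is known as a plasma protein, had 4.42 to 4.63 at E14.5, 7.06 to 7.50 at E15.5 and 6.94 to 6.98 at E16.5. In Itih4 the E15.5 and E16.5 arrays did not overlap, and its second-day change of -0.34 was not called (limma adjusted p = 0.058). The mitochondrial protein gene Chchd10 deviated by 1.69 ± 0.10, with 4.18 on the first day and 0.81 on the second.

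On the log2 scale the genes of brown identity and heat production were called in both directions. Of 30 measured members, 5 lay above the midpoint and 5 below, and the list median was 0.01. The 5 above were Cox7a1, Kcnk3, Ppargc1a, Ppargc1b and Cidea, all early rises. The 5 below were Dio2, Cox8b, Ucp1, Pank1 and Nrg4, all late rises. On the linear scale none lay above and 10 below. Kcnk3, Ppargc1b, Pank1 and Nrg4 were named after their values were seen. Without E16.5 replicate 2 the counts were 7 above and 6 below. The number below was 3 without E14.5 replicate 1 or 3 or without any 1 of the E15.5 arrays.

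Cox7a1 and Cox8b, both subunit genes of cytochrome c oxidase known for muscle and brown fat, took opposite shapes in log2. On the linear scale both lay below the midpoint. Cox7a1 measured 4.94, 4.93 and 4.79 at E14.5, 10.05, 10.07 and 9.95 at E15.5, and 11.74, 11.98 and 11.65 at E16.5. Cox8b measured 7.26, 6.96 and 7.38 at E14.5, 8.14, 8.26 and 7.91 at E15.5, and 11.64, 11.79 and 11.54 at E16.5. In log2 the E15.5 arrays of Cox7a1 lay nearer to E16.5 than to E14.5 and those of Cox8b nearer to E14.5, with no overlap between stages for either gene. The deviations were 1.69 ± 0.09 for Cox7a1 (limma adjusted p = 5.52e-06) and -1.33 ± 0.11 for Cox8b (limma adjusted p = 1.28e-04).

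Ucp1 measured 4.23, 4.65 and 4.50 at E14.5, 5.55, 5.55 and 5.48 at E15.5, and 9.0, 9.37 and 9.29 at E16.5. Its first-day change was 1.06 and its second-day change 3.70, both called, and its deviation was -1.32 ± 0.11 (limma adjusted p = 1.17e-04). The first day held 22.3% of its log2 change. Dio2, the deiodinase that makes active thyroid hormone within the cell, measured 4.06, 3.85 and 3.94 at E14.5, 4.02, 4.12 and 4.31 at E15.5, and 7.02, 7.75 and 7.59 at E16.5. The E14.5 and E15.5 arrays of Dio2 overlapped and the E16.5 arrays stood above both, with a deviation of -1.56 ± 0.14 (limma adjusted p = 2.37e-04).

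Ppargc1a, the coactivator that drives mitochondrial biogenesis and Ucp1 transcription, measured 7.14, 6.86 and 6.91 at E14.5, 9.37, 9.41 and 9.41 at E15.5, and 10.13, 10.22 and 10.20 at E16.5. It placed 75.6% of its log2 change on the first day. Prdm16, a determinant of brown over muscle fate, had a deviation of 0.35 ± 0.09 that was not called (limma adjusted p = 0.0533), with 0.88 on the first day and 0.18 on the second. Its call was gained without E16.5 replicate 2. Ebf2, which marks committed brown precursors, had a deviation of 0.12 with a 95% interval of -0.05 to 0.28.

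**Figure D2:**
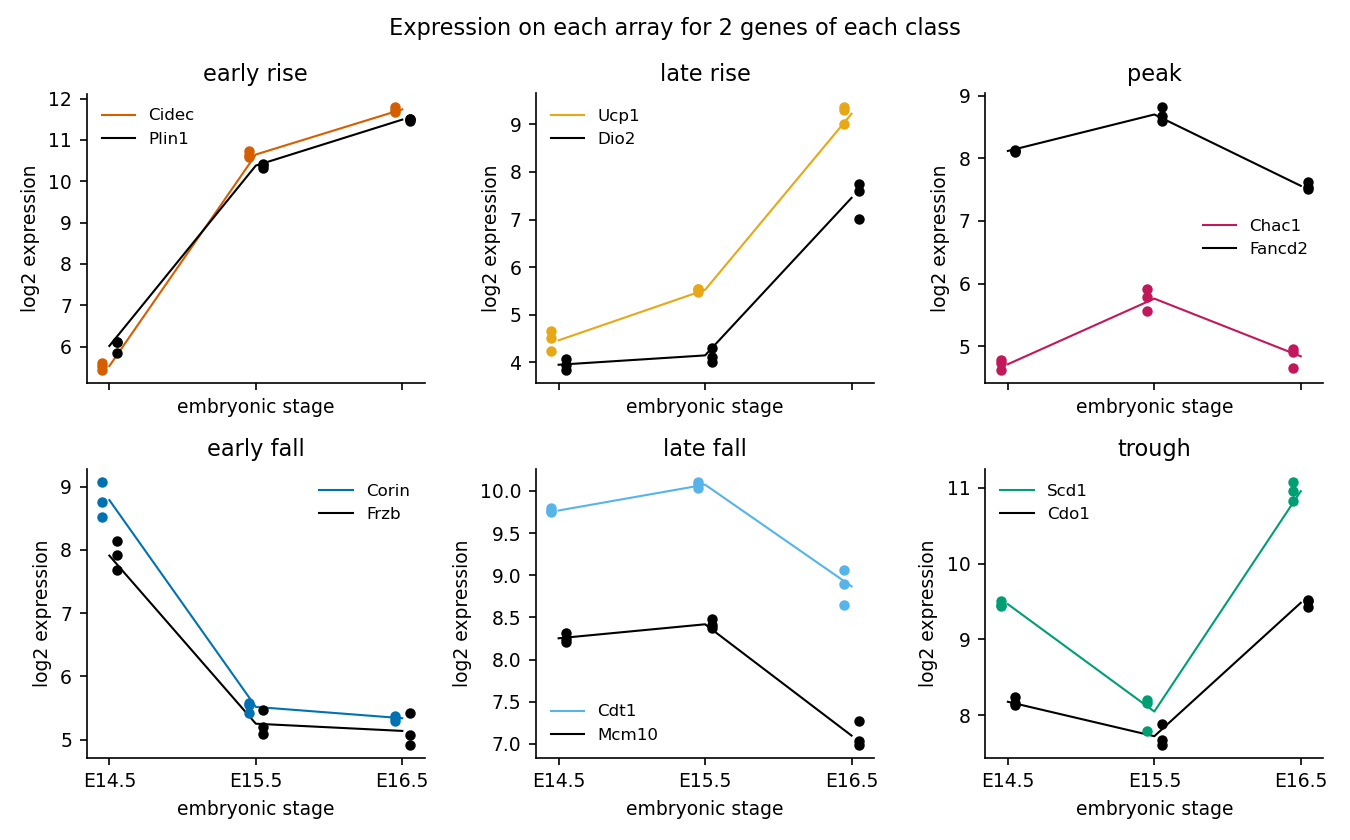
Log2 expression on each of the 9 arrays by stage for 2 genes of each shape, with lines through the stage means and a separate vertical scale in each panel. In log2, Cidec and Plin1 gained most before E15.5, Ucp1 and Dio2 after it, and Scd1 dipped at E15.5 to between 7.79 and 8.20.

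Late rises held further genes with an E15.5 level nearer to that of E14.5 than to that of E16.5 in log2. Tmem45b, which encodes a membrane protein, measured 4.63, 4.78 and 4.75 at E14.5, 5.48, 5.56 and 5.62 at E15.5, and 9.86, 9.99 and 9.85 at E16.5. Its deviation of -1.75 ± 0.07 was the largest of the shape (limma adjusted p = 2.03e-06). The purinergic channel P2rx5, used as a marker of beige and brown fat cells, had 6.24 to 6.34 at E14.5, 6.29 to 6.48 at E15.5 and 8.60 to 8.98 at E16.5. Its first 2 stages overlapped.

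The mitochondrial carrier gene Slc25a35 had a deviation of -1.34 ± 0.09, with 0.13 on the first day and 2.81 on the second. Aspa, which splits N-acetylaspartate into acetate and aspartate, deviated by -1.16 ± 0.12. First-day changes of Dio2, Slc25a35, Aspa and P2rx5 were not called. Of the 264 late rises, 68 also had a called rise on the first day. Of the 306 early rises, 174 also had a called rise on the second day. A called fall on both days was seen in 143 of the 506 early falls and 18 of the 267 late falls.

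In log2, genes of mitochondrial fuel use were called above the midpoint more often than below it. In the list of the TCA cycle and pyruvate oxidation 24 of 25 measured members rose on each day, against 9.07% of all genes on the first and 11.2% on the second. The list medians were 1.02 and 0.56. Of these 25, 8 lay above the midpoint and none below, with a median deviation of 0.21. Pyruvate carboxylase, Pcx, which refills the cycle, had the largest deviation of the list at 0.86 ± 0.07 (limma adjusted p = 1.28e-04). It measured 8.92, 8.70 and 8.86 at E14.5, 10.96, 11.03 and 11.04 at E15.5, and 11.43, 11.48 and 11.51 at E16.5. The isocitrate dehydrogenase subunit Idh3a deviated by 0.56 ± 0.07. The list's count was 13 without E16.5 replicate 2. It was 5, 4 and 5 when E14.5 replicate 1, 2 or 3 was left out, and 2 without any 1 of the E15.5 arrays. On the linear scale 1 lay above and 1 below.

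In fatty acid oxidation, 6 of 22 lay above and 1 below, with a median of 0.22. The acyl-CoA ligase Acsl1 deviated by 0.81 ± 0.08, the dehydrogenases Acadm and Acadl by 0.54 ± 0.08 and 0.48 ± 0.06. The carnitine carrier Slc25a20, named after its value was seen, was the 1 below at -0.58. The count above was 11 without E16.5 replicate 2 and 3 without E15.5 replicate 2 or 3. On the linear scale none lay above and 3 below.

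Many genes of the respiratory chain and the mitochondrial ribosome changed without a large deviation. A gene was counted as steady where it changed at least 2-fold between E14.5 and E16.5, was called there, and had a 95% interval of the deviation wholly within 0.5 of 0. By that measure 28 of 37 complex I genes were steady, as were 17 of 25 in the TCA list, 17 of 38 in complexes III to V, and 39 of 73 mitochondrial ribosome genes. Of all 30915 genes 1937 (6.27%) were. Complex I had 1 call above the midpoint (2.7%, against 2.41% of all genes), Ndufb9 (0.28 ± 0.07, limma adjusted p = 0.0476). That call ended without any 1 of the E14.5 or E15.5 arrays and without E16.5 replicate 3. Complexes III to V had 4 calls above, Uqcrfs1, Uqcr11, Cyc1 and Cox7a1, and 2 below, Cox6a2 and Cox8b. Uqcrfs1, Cyc1 and Cox6a2 were named after their values were seen. The mitochondrial ribosome had 7 above and none below. Without E16.5 replicate 2 the counts above were 5 in complex I, 12 in complexes III to V and 23 in the ribosome. Without any 1 of the E15.5 arrays they were 0, 1 to 2 and 0 to 1, and without any 1 of the E14.5 arrays 0, 3 and 3.

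Among the early rises the shape depended on the scale. A log2 value gives equal weight to equal ratios, while the amount of transcript follows the linear value. Cidec had linear means of 46.2 at E14.5, 1602 at E15.5 and 3414 at E16.5, in arbitrary intensity units. On that scale 46.2% of its rise fell on the first day, against 82.4% in log2. For Cox7a1 the share was 28.8% against 74.4%, and for Cidea 18.0% against 62.4%. Adipoq kept 73.0% and the carbohydrate-sensing factor Mlxipl 87.1% on the first day. Ucp1, Cox8b and Dio2 placed 4.2%, 4.1% and 1.4% of their linear rise there.

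Each gene's linear values were divided by their mean over the arrays and tested with the same contrast. Of the 306 early rises 104 were called above the midpoint on this scale, 9 were called below it, 137 kept their direction without a call and 56 changed direction without a call. Of the 506 early falls 483 were called in the same direction, of the 264 late rises 234, and of the 267 late falls 226. A gene below the log2 midpoint also lies below the linear one by construction. Early falls and late rises could therefore not turn, and their counts are no measure of robustness. The linear contrast called 541 genes above and 1546 below. Cox7a1 and Cidea were among the genes below the midpoint on the linear scale, at -0.49 and -0.79 of their mean level.

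**Figure D3:**
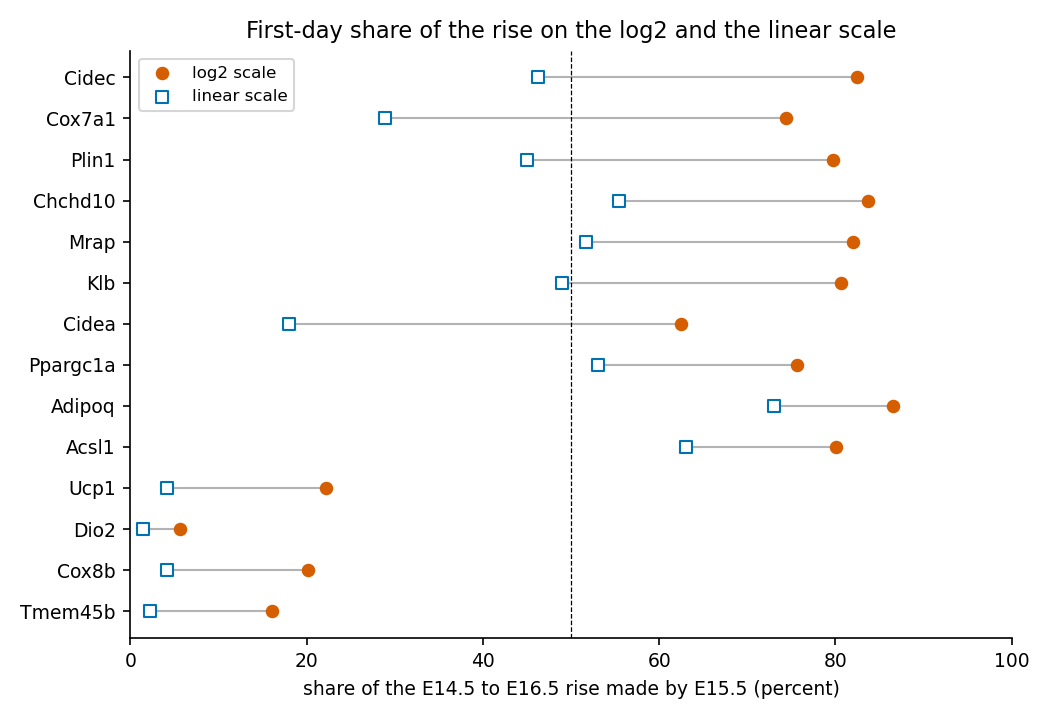
Share of the E14.5 to E16.5 rise that was present by E15.5, in percent, for 14 genes, as log2 values (filled circles) and as linear values (open squares). The dashed line marks 50 percent. Cidec, Cox7a1, Plin1, Klb and Cidea cross it between the scales. The late rises stay below it on both, which is fixed by construction for a rise below the log2 midpoint.

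Genes of lipid synthesis were called on both sides of the midpoint. Scd1, the desaturase that makes monounsaturated fatty acids, had the largest deviation of any gene in either direction. It measured 9.44, 9.50 and 9.45 at E14.5, 8.16, 7.79 and 8.20 at E15.5, and 10.83, 11.08 and 10.96 at E16.5. All 3 E15.5 arrays lay below all 6 others. The deviation was -2.16 ± 0.10 (limma adjusted p = 4.25e-06), with -1.42 on the first day and 2.91 on the second.

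Fatty acid synthase, Fasn, measured 10.96, 10.96 and 10.85 at E14.5, 10.32, 10.32 and 10.08 at E15.5, and 10.51, 10.57 and 10.66 at E16.5. It was also a trough, with a deviation of -0.51 ± 0.08 (limma adjusted p = 0.00449), and its E15.5 arrays lay below the others. ATP citrate lyase, Acly, which supplies acetyl-CoA for fatty acid synthesis, was the further trough of the list (-0.43 ± 0.07) and was named after its value was seen.

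Of 33 genes that make fatty acids and triglycerides, 10 lay below the midpoint and 5 above, with a median of -0.13. The 5 above were early rises. They included Mlxipl, which measured 6.33, 6.06 and 6.32 at E14.5, 8.66, 8.96 and 9.08 at E15.5, and 9.07, 9.13 and 9.0 at E16.5. Gpd1, the enzyme that makes glycerol 3-phosphate, deviated by 1.33 ± 0.13 and the sterol and lipid regulator Srebf1 by 0.44 ± 0.08. Dgat2 and Lpin1, both of triglyceride assembly and named after their values were seen, deviated by 0.42 and 0.44. The count below fell to 3 or 4 without any 1 of the E14.5 or E15.5 arrays, and the count above to 3 without E15.5 replicate 2 or 3. Cholesterol synthesis had 3 of 24 below, the late rises Fdft1, Hmgcs1 and Insig1, and none was called without any 1 of the E15.5 arrays. Without any 1 of the E14.5 arrays 1 was. The call of Srebf1 ended without E15.5 replicate 2 or 3.

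Other troughs touched lipid uptake, sulphur metabolism and stress. The lipoprotein receptor gene Vldlr measured 8.42, 8.67 and 8.48 at E14.5, 7.85, 7.90 and 7.85 at E15.5, and 9.06, 9.30 and 9.21 at E16.5 (deviation -0.99 ± 0.08, limma adjusted p = 1.27e-04). Cdo1, the dioxygenase that commits cysteine to taurine and sulphate, measured 8.23, 8.16 and 8.14 at E14.5, 7.89, 7.67 and 7.61 at E15.5, and 9.43, 9.52 and 9.50 at E16.5. Ddit4, an inhibitor of mTORC1 that responds to hypoxia and glucocorticoids, had 8.47 to 8.66 at E14.5, 7.52 to 7.69 at E15.5 and 8.18 to 8.55 at E16.5. In all 3 genes the E15.5 arrays lay below the 6 others, as in all 94 troughs.

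The skeletal muscle genes Sln, which inhibits the calcium pump, and Mb, which encodes myoglobin and was named after its value was seen, were troughs as well, at -0.88 ± 0.10 and -0.47 ± 0.08. So was Fndc5, the precursor gene of irisin, at -0.86 ± 0.09. Ddit4 was the 1 call among 21 hypoxia targets with all arrays (4.76%, against 2.79% of all genes below the midpoint).

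Glycogen genes were called below the midpoint more often than above it, as late rises, a trough or early falls. In glycogen synthesis, 5 of 17 measured members lay below the midpoint and 1 above, with a median of -0.16. Hexokinase 2, Hk2, which traps glucose in the cell, measured 8.56, 8.58 and 8.53 at E14.5, 8.09, 8.34 and 8.35 at E15.5, and 9.17, 9.35 and 9.23 at E16.5. It was a trough with a deviation of -0.64 ± 0.08 (limma adjusted p = 0.00145). The glycogen-targeting subunits Ppp1r3b and Ppp1r3c were late rises at -0.55 ± 0.09 and -0.38 ± 0.09, and Ugp2, which makes UDP-glucose, was one at -0.38 ± 0.08. The muscle subunit Ppp1r3a was an early fall and Ppp1r3d an early rise, both named after their values were seen. The count below was 3 without any 1 of the E14.5 arrays and 2 without any 1 of the E15.5 arrays. The call of Ppp1r3c ended without any 1 of the E14.5 or E15.5 arrays or E16.5 replicate 3, that of Ugp2 without E15.5 replicate 2 or 3, and that of Ppp1r3b without E15.5 replicate 1.

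Glycogen synthase, Gys1, and the branching enzyme, Gbe1, were steady rises. Gbe1 measured 7.27, 7.08 and 7.22 at E14.5, 8.36, 8.41 and 8.40 at E15.5, and 10.02, 10.34 and 9.97 at E16.5, with a deviation interval of -0.46 to -0.06. In glycogen breakdown 3 of 14 lay below, Pygm, Stbd1 and Epm2a. In the autophagy core 1 of 38 did, Map1lc3a, a share of 2.63% that was near the 2.79% of all genes. The call of Pygm ended without any 1 of the E14.5 arrays, without E15.5 replicate 2 or 3, and after median centring. That of Epm2a ended without E14.5 replicate 1 or 3 or without any 1 of the E15.5 arrays. That of Stbd1 ended without E15.5 replicate 1 or 2, and that of Map1lc3a without any 1 of the E15.5 arrays.

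Genes of DNA replication fell mainly on the second day, when 36 of 38 measured members were called down, against 8.46% of all genes, with a median of -0.73. On the first day 9 were called up, against 9.07% of all genes, and 1 down, with a median of 0.21. Of the 38, 33 lay above the midpoint and none below, with a median deviation of 0.47. The shapes were 25 late falls, 7 peaks and 1 early rise. Cdt1, which loads the replicative helicase onto origins, measured 9.76, 9.74 and 9.80 at E14.5, 10.04, 10.08 and 10.11 at E15.5, and 9.06, 8.65 and 8.90 at E16.5. Its E15.5 arrays lay above all 6 others, its first-day change of 0.31 was not called (limma adjusted p = 0.0618), and its deviation was 0.76 ± 0.09 (limma adjusted p = 9.94e-04).

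Mcm10, which starts the unwinding of origins, measured 8.31, 8.24 and 8.20 at E14.5, 8.48, 8.40 and 8.37 at E15.5, and 6.99, 7.28 and 7.03 at E16.5. Pole, the leading-strand polymerase, deviated by 0.63 ± 0.07, with 0.03 on the first day and -1.23 on the second. Without E16.5 replicate 2 all 38 members were called above the midpoint, and without E15.5 replicate 1, 2 or 3 the counts were 18, 17 and 18.

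In the mitosis list 22 of 30 measured members lay above the midpoint and none below, with a median of 0.42, as 15 late falls and 7 peaks. Birc5, the survivin of the chromosomal passenger complex, measured 8.38, 8.43 and 8.43 at E14.5, 8.93, 8.81 and 8.97 at E15.5, and 8.20, 8.05 and 8.06 at E16.5. Its 3 E15.5 arrays lay above the others, and its deviation was 0.64 ± 0.07 (limma adjusted p = 6.53e-04). The checkpoint kinase gene Bub1b and the centrosome kinase gene Nek2 were peaks at 0.66 ± 0.07 and 0.67 ± 0.10. Mki67, a proliferation marker, was a late fall at 0.35 ± 0.07, and that call ended without any 1 of the E15.5 arrays. Without E15.5 replicate 1, 2 or 3 the mitosis counts were 8, 7 and 8.

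Further cell cycle lists were drawn up after the shapes had been seen and are given as descriptions. Of 33 genes of homologous recombination and crosslink repair, 18 lay above the midpoint and none below, with 9 peaks, 8 late falls and 1 early rise. Fancd2, which takes part in the repair of crosslinks and was named after its value was seen, measured 8.13, 8.11 and 8.12 at E14.5, 8.60, 8.83 and 8.68 at E15.5, and 7.54, 7.63 and 7.51 at E16.5 (deviation 0.86 ± 0.07, limma adjusted p = 1.27e-04). The exonuclease gene Exo1 was a late fall at 0.76 ± 0.07.

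Of 65 replication-dependent histone genes, 17 lay above and none below. The count was 30 without E16.5 replicate 2. It was 11 when E14.5 replicate 2 was left out, and 7, 10 and 7 when E15.5 replicate 1, 2 or 3 was. These genes are near-identical copies, so probes may be shared between them, and 2 of the 17, Hist2h2aa1 and Hist2h2aa2, had the same values. Cdkn1a, an inhibitor of cyclin-dependent kinases named after its values were seen, ran the other way. It measured 10.53, 10.53 and 10.54 at E14.5, 10.09, 10.00 and 10.15 at E15.5, and 11.04, 11.06 and 11.01 at E16.5. It was a trough at -0.70 ± 0.06 (limma adjusted p = 2.34e-04), 1 of 4 below the midpoint among 20 p53 target genes, of which 2 lay above.

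**Figure D4:**
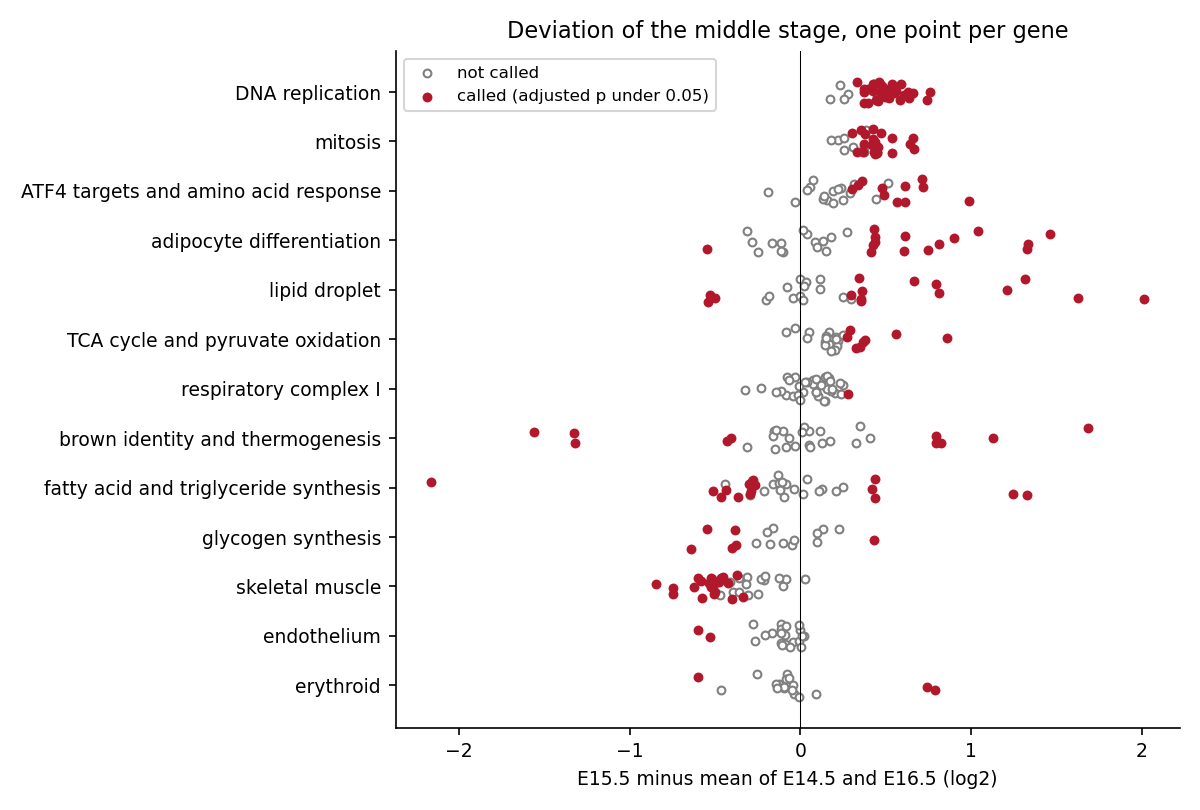
Log2 deviation of E15.5 from the midpoint of E14.5 and E16.5 for each measured member of 13 gene lists, with called genes filled and others open. DNA replication and mitosis lie wholly to the right of 0, skeletal muscle almost wholly to the left, and brown identity and thermogenesis on both sides.

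Promoters of the late falls and peaks, cell cycle genes and others alike, were searched for letter strings. These shapes held most of the listed replication genes, and many replication genes are controlled by E2F factors. The windows, from RefSeq on GRCm38.p6, run from 250 bases before to 50 after a gene's start, and a gene was counted if any of its windows held the string on either strand. In all, 15 strings were searched, chosen with the shapes known. TTTCCCGC was found in 10.2% of 206 late-fall genes with a window and in 4.29% of 140 peak genes, against 1.57% of all 18997 genes with a window. TTTGGCGC was found in 5.34% and 2.86%, against 0.758%. TTTGAA, the core of the cell cycle genes homology region, was found in 28.6% of both shapes, against 18.0% of all genes and 4.55% of 66 trough genes. CCAAT was found in 59.2% and 49.3%, against 41.9% of all genes and 38.0% to 47.7% of the other shapes. Among early rises TTTCCCGC and TTTGGCGC stood in 0.431% and 0.862% of 232 genes. The GC box GGGCGG, common in promoters rich in CpG, was found in 76.2% of late falls and 48.1% of all genes. It was found in 58.4% to 66.4% of the other shapes, so base composition differed between the shapes and all genes. The amino acid response element TGATGNAAN (N for any base) was found in 3.57% of peaks and 0.971% of late falls, against 3.98% of all genes. A string is not a bound site, and the share says nothing of the factor.

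Among the late falls and peaks whose window held either E2F string, 4 with a large deviation are printed to show where it lies. They are examples and not a ranking over all chromosomes. They were picked after their values were seen. Capitals mark the strings TTTCCCGC and TTTGGCGC, and also CCAAT, in either orientation. Tmem178 (chr17:80944382-80944681, plus strand) encodes a membrane protein and deviated by 0.79 ± 0.07. Cdt1 (chr8:122567765-122568064, plus strand) deviated by 0.76. The checkpoint kinase gene Chek2 (chr5:110839733-110840032, plus strand) was a peak at 0.75 ± 0.12. Hells (chr19:38930740-38931039, plus strand), a chromatin remodeller of dividing cells, was a late fall at 0.72 ± 0.10.
Tmem178: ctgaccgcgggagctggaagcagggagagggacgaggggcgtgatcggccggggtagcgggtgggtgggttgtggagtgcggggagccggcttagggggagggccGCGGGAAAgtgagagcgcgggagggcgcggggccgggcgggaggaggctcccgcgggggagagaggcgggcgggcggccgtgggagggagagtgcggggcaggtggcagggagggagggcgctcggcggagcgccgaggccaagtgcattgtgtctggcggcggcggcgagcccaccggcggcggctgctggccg
Cdt1: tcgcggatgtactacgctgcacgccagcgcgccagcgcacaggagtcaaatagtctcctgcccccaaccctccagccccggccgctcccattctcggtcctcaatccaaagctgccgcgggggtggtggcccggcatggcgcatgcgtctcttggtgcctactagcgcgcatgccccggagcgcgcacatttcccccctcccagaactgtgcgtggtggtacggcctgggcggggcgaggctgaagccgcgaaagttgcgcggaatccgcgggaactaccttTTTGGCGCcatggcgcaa
Chek2: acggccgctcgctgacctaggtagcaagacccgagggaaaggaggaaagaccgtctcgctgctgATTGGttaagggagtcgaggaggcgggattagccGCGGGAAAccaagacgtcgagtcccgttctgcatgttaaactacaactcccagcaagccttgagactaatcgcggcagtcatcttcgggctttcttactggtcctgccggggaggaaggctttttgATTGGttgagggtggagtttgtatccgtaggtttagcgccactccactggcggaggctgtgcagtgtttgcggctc
Hells: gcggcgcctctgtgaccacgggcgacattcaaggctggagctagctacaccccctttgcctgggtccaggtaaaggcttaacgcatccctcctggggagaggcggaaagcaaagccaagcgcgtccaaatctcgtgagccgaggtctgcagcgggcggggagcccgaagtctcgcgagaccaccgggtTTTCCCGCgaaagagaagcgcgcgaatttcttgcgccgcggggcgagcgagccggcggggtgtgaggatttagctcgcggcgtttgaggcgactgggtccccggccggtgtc
The string of Cdt1 lies downstream of the annotated start and those of the other 3 upstream of it.

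A set of amino acid and one-carbon genes peaked or fell late. In the list of ATF4 targets and the amino acid response, 11 of 28 measured members lay above the midpoint and none below, with a median of 0.30, as 5 peaks, 4 late falls and 2 early rises. Chac1, which breaks down glutathione, measured 4.63, 4.73 and 4.78 at E14.5, 5.92, 5.57 and 5.79 at E15.5, and 4.65, 4.96 and 4.91 at E16.5. Its E15.5 arrays stood above all 6 others (deviation 0.98 ± 0.10, limma adjusted p = 3.89e-04), and the outer stages overlapped.

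Mthfd2, the mitochondrial folate enzyme of dividing cells, measured 8.98, 9.10 and 9.0 at E14.5, 9.52, 9.41 and 9.51 at E15.5, and 8.46, 8.65 and 8.39 at E16.5. Pck2, the mitochondrial phosphoenolpyruvate carboxykinase, was an early rise at 0.61 ± 0.07. Cth, which makes cysteine from cystathionine, peaked at 8.47, 8.57 and 8.55 on the E15.5 arrays, against 7.17, 7.12 and 7.15 at E14.5 and 7.52, 7.87 and 7.57 at E16.5. The list count was 21 without E16.5 replicate 2 and 7 without E15.5 replicate 1 or 3. Atf4 itself, named after its value was seen, was not called (0.16 ± 0.08). In the list of endoplasmic reticulum chaperones limma called none of 20, with 2 at an unadjusted p under 0.05 and 2 called without E16.5 replicate 2.

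Several single genes peaked at E15.5 outside these lists. Sowahd, which encodes an ankyrin repeat protein, had the largest deviation of the shape. It measured 5.02, 4.94 and 5.24 at E14.5, 7.40, 7.21 and 7.01 at E15.5, and 6.08, 6.23 and 6.08 at E16.5 (deviation 1.61 ± 0.10, limma adjusted p = 2.03e-05). The insulin receptor substrate gene Irs4 measured 9.0, 8.78 and 8.92 at E14.5, 10.70, 10.77 and 10.62 at E15.5, and 10.18, 10.22 and 10.18 at E16.5. For both genes the 3 stages were apart and E15.5 was highest.

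Nnat, an imprinted gene for a small endoplasmic reticulum protein, measured 9.95, 9.80 and 9.97 at E14.5, 10.99, 10.91 and 10.80 at E15.5, and 10.14, 9.88 and 10.10 at E16.5. It was the 1 call among 22 imprinted growth genes (4.55%, against 2.41% of all genes above the midpoint), with a deviation of 0.93 ± 0.08. The matricellular protein gene Smoc1 deviated by 1.08 ± 0.08 and the tight junction gene Cldn15 by 1.26 ± 0.13. Alpl, tissue-nonspecific alkaline phosphatase, led the late falls at 0.87 ± 0.09, with 8.95 to 9.03 at E14.5, 8.98 to 9.13 at E15.5 and 7.21 to 7.52 at E16.5.

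Early falls, the most numerous shape, held skeletal muscle and signalling genes. Corin, a protease that processes natriuretic peptides, measured 8.53, 9.08 and 8.76 at E14.5, 5.58, 5.55 and 5.42 at E15.5, and 5.29, 5.35 and 5.38 at E16.5. The last 2 stages were close but did not overlap, and the second-day change of -0.18 was not called (limma adjusted p = 0.35). Its deviation was -1.55 ± 0.11 (limma adjusted p = 4.38e-05). Frzb, a secreted Wnt antagonist, measured 7.67, 7.92 and 8.14 at E14.5, 5.47, 5.20 and 5.09 at E15.5, and 5.07, 5.42 and 4.92 at E16.5, with overlap between the last 2 stages. The netrin receptor gene Dcc deviated by -1.14 ± 0.13, and Dct, an enzyme of melanin synthesis, by -1.15 ± 0.15.

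In the Wnt list 6 of 39 measured members lay below the midpoint and none above, and in the BMP and TGF-beta list 8 of 42 lay below and 1 above. Their medians were -0.11 and -0.20. All 14 below were early falls. They included Rspo2 and Lgr5, a ligand and its receptor that amplify Wnt signals, at -0.54 ± 0.09 and -0.66 ± 0.11. They also included follistatin, Fst, an activin inhibitor, at -0.66 ± 0.09 and the ligand gene Tgfb3 at -0.50 ± 0.07. The 1 above was the receptor gene Acvr1c. Without E15.5 replicate 2 or 3 the BMP and TGF-beta count below was 3 and 4, and the Wnt count was 2 and 3. It was also 3 without E14.5 replicate 3. The call of Lgr5 ended without E15.5 replicate 3 and that of Rspo2 without E15.5 replicate 2.

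The skeletal muscle list had 22 of 38 measured members below the midpoint and none above, with a median of -0.44, as 21 early falls and 1 trough. Myh8, the perinatal myosin heavy chain, measured 9.65, 9.57 and 9.54 at E14.5, 8.23, 8.10 and 8.20 at E15.5, and 8.44, 7.89 and 8.44 at E16.5. Its last 2 stages overlapped (deviation -0.75 ± 0.12, limma adjusted p = 0.00473). Tmem8c, the older symbol of the myoblast fusion gene Mymk, deviated by -0.60 ± 0.09. The first-day median of the list was -1.0 and the second-day median -0.17. The sum of its log2 levels was 331 to 333 on the E14.5 arrays, 287 to 296 at E15.5 and 279 to 287 at E16.5. The count below was 31 without E16.5 replicate 2, 14 without any 1 of the E14.5 arrays, and 5 and 9 without E15.5 replicate 2 and 3.

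The muscle transcripts thus moved with the early falls, and genes of glycolysis and glycogen breakdown that are expressed in muscle, Pgam2 and Pygm, were early falls too, with calls that ended without E15.5 replicate 2 or 3. The part of muscle RNA in the result was not tested. Markers of other cell types were also called. Of 13 mural and smooth muscle genes 3 lay below the midpoint, Acta2 (named after its value was seen), Tagln and Des, and 1 above, Rgs5. The number below was 0 without E15.5 replicate 2 and 1 without E15.5 replicate 3. On the first day 11 of 24 macrophage and leukocyte genes and 10 of 22 neuron and Schwann cell genes were called down, against 11.2% of all genes, with medians of -0.31 and -0.30. Of 22 endothelial genes 2 lay below the midpoint, Vwf and Prox1. On the first day 6 of the 22 were called down and 2 up, with a median of -0.07. The defining gene Cdh5 averaged 11.8 to 11.9 at every stage, while Tek averaged 9.66, 9.15 and 9.19. Of 22 neuron and Schwann cell genes 4 lay below, with the receptor genes Erbb3 at -0.64 ± 0.08 and Ngfr at -0.66 ± 0.11. Of 24 macrophage and leukocyte genes 1 lay below, Itgam (4.17%, against 2.79% of all genes). The calls of Vwf, Ngfr and Itgam each ended without at least 1 of the E15.5 arrays, and that of Prox1 without any 1 of them. The neuron and Schwann cell count was 1 without E15.5 replicate 2 and 2 without E15.5 replicate 3. Limma called none of 16 epidermal genes, with 0 at an unadjusted p under 0.05, and none of 10 mast cell genes, with 5 at an unadjusted p under 0.05 and 2 called without E16.5 replicate 2.

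Of 18 erythroid genes 2 lay above the midpoint and 1 below, and the list median was -0.08. The embryonic globin Hbb-y was a late fall, with 9.39 to 9.65 at E14.5, 8.29 to 8.32 at E15.5 and 5.23 to 6.05 at E16.5. The transferrin receptor Tfrc, which imports iron into many cell types, was an early rise at 0.79 ± 0.08. The embryonic globin Hbb-bh1 was the 1 below, an early fall at -0.60 ± 0.15 (limma adjusted p = 0.0444). The call of Hbb-y (0.74 ± 0.15) ended without any 1 of the E15.5 arrays. That of Hbb-bh1 ended likewise, and also without E14.5 replicate 1 or 3 or E16.5 replicate 1.

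**Figure D5:**
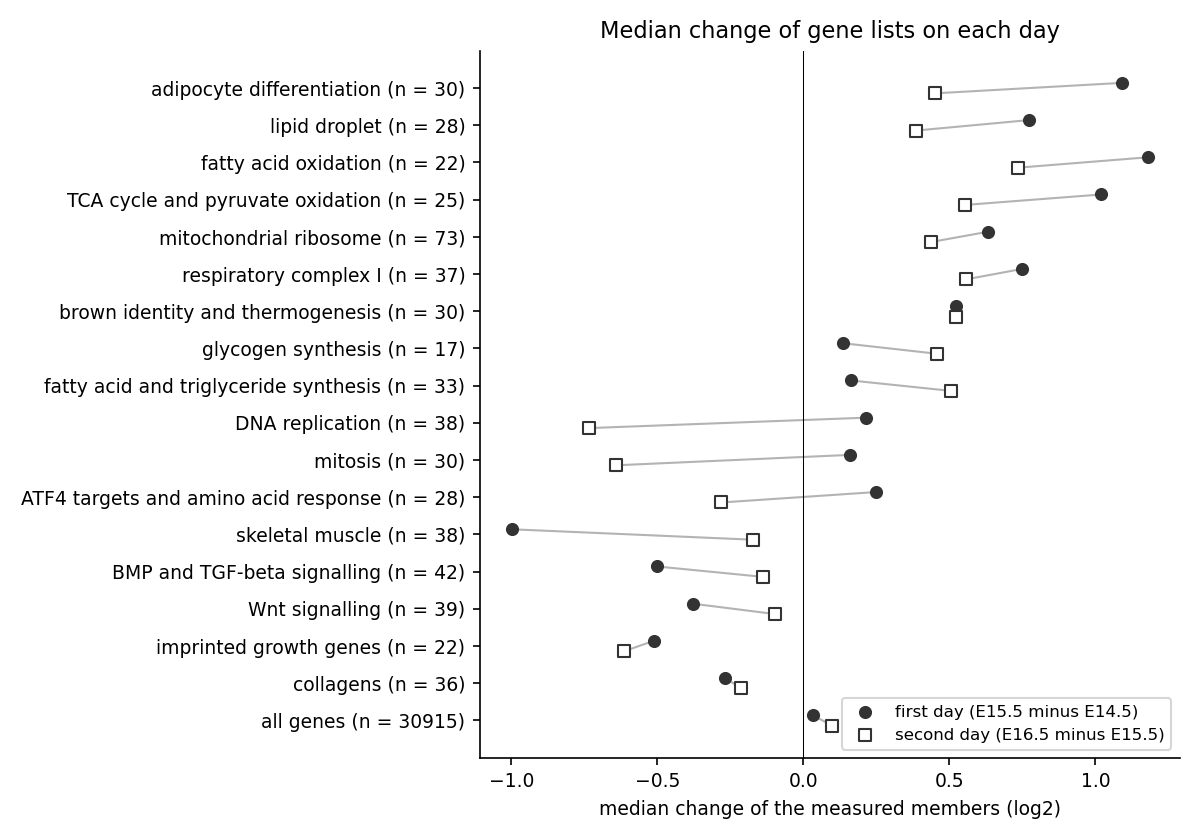
Median log2 change of the measured members of 17 gene lists and of all genes on the first day (filled circles) and the second day (open squares). The 2 days share the E15.5 arrays. Skeletal muscle moved by -1.0 on the first day and -0.17 on the second, and DNA replication by 0.21 and -0.73.

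Steady genes, as defined above for the respiratory chain, had a bounded deviation, not equal steps. Of the 3231 genes (10.5%) that were called and changed at least 2-fold between E14.5 and E16.5, 767 (2.48% of all genes) were called off the midpoint, and 1937 were steady within 0.5 of it. Of these, 84 were both, with a small deviation that was called. Of the steady genes 1128 (3.65%) rose and 809 (2.62%) fell. With a bound of 0.25 the number was 371 (1.2%). A further 611 (1.98%) were neither, so their shape was not settled with 3 arrays per stage.

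Among the steady genes named here Mmd2 had the largest rise. It measured 5.92, 6.25 and 6.02 at E14.5, 8.45, 8.64 and 8.64 at E15.5, and 10.69, 10.88 and 10.64 at E16.5. Its steps were 2.52 and 2.15, and the interval of its deviation ran from -0.03 to 0.39. Ppara, the nuclear receptor that governs fatty acid oxidation, had steps of 2.11 and 1.73, with an interval of -0.11 to 0.49. Car4, a carbonic anhydrase at the cell surface, had 1.97 and 2.02. On the linear scale Mmd2, Ppara and Aldh1a7 lay below the midpoint, at -0.70, -0.51 and -0.45 of their mean level. The steady rises Car4 and Gbe1 were called off the midpoint on that scale too. They placed 19.6% and 19.7% of their linear rise on the first day.

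Among the steady falls, Sox9, a regulator of cartilage and of progenitors, measured 10.53, 10.64 and 10.61 at E14.5, 9.16, 8.94 and 8.79 at E15.5, and 7.26, 6.96 and 7.24 at E16.5. Its interval was -0.13 to 0.31. Tmem26, used as a beige cell marker, had steps of -1.55 and -1.67. Pdgfra, the receptor that marks mesenchymal progenitors, had steps of -1.02 and -0.94 and an interval of -0.20 to 0.12. In each of these 3 genes the stages did not overlap. On the linear scale Sox9 and Tmem26 lay below the midpoint, at -0.468 and -0.438 of their mean level, and Pdgfra was called off it as well.

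The table also held 559 microRNA entries, of which 12 (2.15%) were called below the midpoint and none above, near the 2.79% of all genes. Of the 12, 11 were early falls and 1, Mir22, a late rise. Whether a probe set reads the mature RNA or its precursor is not given in the sources used here. Leaving out E15.5 replicate 1, 2 or 3 gave 1, 2 and 26 below, and leaving out E14.5 replicate 1 or 2 gave 6. The 2 early falls with the largest deviation, Mir539 and Mir411, and the muscle microRNA Mir133b are shown, all picked after their values were seen. Mir411 (deviation -0.90 ± 0.12) measured 6.08, 5.88 and 5.55 at E14.5, 3.78, 3.63 and 4.03 at E15.5, and 3.61, 3.57 and 3.61 at E16.5. Mir133b (-0.64 ± 0.13) measured 6.58, 6.15 and 6.32 at E14.5, 5.05, 4.68 and 5.25 at E15.5, and 4.81, 5.05 and 4.91 at E16.5. In both the E14.5 arrays stood above the 6 others. The mature sequences, from RefSeq on GRCm38.p6, have the seed (bases 2 to 8) in capitals. Mir411 and Mir539 lie on chr12:109710190-109710210 and chr12:109728136-109728157 and Mir133b on chr1:20682834-20682855, all on the plus strand.
miR-411-5p: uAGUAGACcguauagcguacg
miR-539-5p: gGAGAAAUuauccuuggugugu
miR-133b-3p: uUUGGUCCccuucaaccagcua
The 3 seeds differ from each other.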

How the data were processed

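RNA from 9 pools of embryonic BAT was measured on 9 arrays, 3 per stage. The deposited log2 values came from Partek 7.0 with RMA, per the submitters' processing notes. The array annotation build and the rule that gave 1 value per gene symbol are not given in the sources used here. Of the 30915 symbols 26677 are current in RefSeq (GRCm38.p6), 1034 are older names, 3204 were unmatched, and 13 had been turned into dates and were not named.

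A linear model with 1 mean per stage was fitted to all genes in R 4.3.3 with limma 3.58.1 (residual df 6, prior df 4.59, prior SD 0.129). The contrast was E15.5 minus the average of the E14.5 and E16.5 means, with Benjamini-Hochberg adjustment over 30915 genes and a threshold of 0.05. Single days and the change over both days came from the same fit. The scripts were tested on simulated data. The number of arrays limits the precision.

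The genes, 43 gene lists (1193 measured entries, 1160 distinct genes) and tests were chosen with earlier results of these data known, and 6 further lists after the shapes had been seen. The genes named were a choice of the 8 bright, non-overlapping genes with the largest deviation per shape, the 5 largest steady rises and falls, up to 3 genes of smallest p per list, and a fixed panel. Lack of overlap was a condition for the genes chosen by shape and is no further support for them. Others are said to be named after their values were seen, apart from marker genes. Alternatives were quantile normalization, median centring, leaving out dim genes, an intensity trend, robust variances, array weights, the linear scale, a replicate block and leaving out each array. Figures and motif searches used Python 3.11.15.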

Additional observations from a re-analysis of the deposited data

How the results depend on the processing

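With 3 arrays per stage, and the 3 E15.5 arrays carrying the most weight in the contrast, the number of calls moved with the processing. Leaving out 1 array gave 320 to 1813 genes above the midpoint and 286 to 1548 below. The range was 132 to 720 for early rises, 147 to 935 for early falls, 83 to 447 for late rises, 97 to 674 for late falls, 85 to 419 for peaks and 41 to 166 for troughs. The low ends came from leaving out E15.5 arrays and the high ends from leaving out E16.5 replicate 2. Genes above the midpoint numbered 1457 after quantile normalization, 1345 after median centring, 1143 with dim genes left out and 1954 with array weights, against 746. Genes below numbered 1359 with dim genes left out, 1871 with array weights and 1546 on the linear scale, against 864. With a size of at least 0.5 there were 310 above and 382 below, and with a size of at least 1 there were 36 and 28. Early rises numbered 596 after quantile normalization, 517 after median centring, 480 with dim genes left out, 840 with array weights and 104 on the linear scale. Early falls numbered 799 with dim genes left out, 1153 with array weights and 1036 on the linear scale. Late rises numbered 397, 541 and 451 under the same 3 settings, and troughs 163, 177 and 59. Late falls numbered 511 after quantile normalization, 503 after median centring and 697 with array weights. Peaks numbered 350, 325 and 417 under those 3 settings and 268 with dim genes left out. Steady genes numbered 371 with a bound of 0.25.

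Of the 140 named genes that were called, 65 kept call and direction in every alternative, 20 lost or turned only on the linear scale, and 55 lost the call without 1 E15.5 array. No named gene changed direction as a call except on the linear scale. Uncalled deviations near 0 changed sign in other settings too, as for Car4, Pygl, Sox9 and Tmem26 when 1 array was left out. On the linear scale the deviation in units of the gene's mean level was -0.0455 for Acvr1c, -0.453 for Aldh1a7, -0.139 for Aldh6a1, -0.787 for Cidea, -0.0756 for Cidec, -0.486 for Cox7a1, -0.193 for Hbb-y, -0.206 for Hibch, -0.0188 for Klb, -0.0382 for Lep, -0.70 for Mmd2, -0.12 for Pex11a, -0.0977 for Plin1, -0.509 for Ppara, -0.353 for Slc36a2, -0.468 for Sox9 and -0.438 for Tmem26. This follows from the alternative's own construction, which weighs absolute instead of relative steps. The causes of the other differences were not tested.

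The labels gave replicate numbers but no pairing of the arrays. Deviations from the stage means correlated between -0.134 and 0.1 for same-numbered arrays and between -0.133 and 0.113 for the others. With 3 arrays per stage this cannot show whether arrays were paired. With the replicate block 615 genes were called above the midpoint and 749 below, 1364 in all and 1288 of them among the 1610. No count of a shape moved by over 1.5 times.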
